A study of Mus musculus with 3 samples.

Results

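Growth hormone cells of pituitaries that carry Tpit were examined here as cluster 2 of a single-cell RNA sequencing study of mouse pituitary. The members were all cells that the authors' table of cell barcodes assigned to cluster 2 in the TpitHT or the TpitWT library. They numbered 4173 of the 37474 cells in the 3 libraries, with 2092 cells of TpitHT and 2081 cells of TpitWT. A further 17 cells of TpitKO carried the same cluster number and were not members.

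The study compared pituitaries of 3 genotypes at the gene for Tpit, the transcription factor encoded by Tbx19 that drives the fate of the pituitary cells that make pro-opiomelanocortin. TpitHT, TpitKO and TpitWT each had 1 library, so no value could be set against the variation between animals and no difference was tested. Live cells were sorted with propidium iodide and profiled with Chromium 3′ v3 reagents on an Illumina NovaSeq instrument. The labels do not spell out HT, and they give no number of mice, age, sex, strain or construction of the allele. The genotypes are called HT, KO and WT from here on.

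Somatotropes make growth hormone, encoded by Gh, and are the cells through which the pituitary controls body growth. The hypothalamic peptide GHRH acts on their receptor Ghrhr through cyclic AMP, and somatostatin restrains release. They descend from the lineage of the transcription factor Pit1, encoded by Pou1f1, which they share with lactotropes and thyrotropes, and glucocorticoids from the adrenal promote their maturation.

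Of the 5 marker genes of the cluster, 3 had an entry in the RefSeq table of promoter sequences on build GRCm38.p6, and these are shown to place the motifs that lineage factors and the basal machinery are known to read. Capitals mark TATNCAT, the core letters of Pit1 sites, in the promoter of Pappa2, and TATAA, the letters of a TATA box, in those of Dapl1 and Gnmt. Both motifs were searched on both strands of the 250 bases before each gene's start. The sequences run 5′ to 3′ on the strand of the gene.

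Pappa2: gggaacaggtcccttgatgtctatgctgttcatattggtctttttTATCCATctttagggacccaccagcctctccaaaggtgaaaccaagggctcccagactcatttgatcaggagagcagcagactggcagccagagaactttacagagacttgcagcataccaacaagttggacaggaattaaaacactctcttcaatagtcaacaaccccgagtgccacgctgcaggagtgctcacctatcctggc

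Dapl1: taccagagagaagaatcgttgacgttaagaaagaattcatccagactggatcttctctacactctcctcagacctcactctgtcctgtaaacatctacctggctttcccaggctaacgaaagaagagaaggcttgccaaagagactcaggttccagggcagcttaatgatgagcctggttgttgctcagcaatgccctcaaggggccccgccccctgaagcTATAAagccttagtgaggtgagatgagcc

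Gnmt: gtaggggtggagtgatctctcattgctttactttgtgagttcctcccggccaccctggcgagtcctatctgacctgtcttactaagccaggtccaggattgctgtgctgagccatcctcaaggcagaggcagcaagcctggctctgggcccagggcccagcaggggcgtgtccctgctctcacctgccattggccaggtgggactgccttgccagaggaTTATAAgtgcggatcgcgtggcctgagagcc

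The Pappa2 window lies at chr1:158958176-158958425 on the minus strand, and its match to TATNCAT starts 205 bases before the gene's start. The Dapl1 window, chr2:59484403-59484652 on the plus strand, holds TATAA 29 bases before the start. In the Gnmt window, chr17:46729166-46729415 on the minus strand, TATAA on both strands overlaps as TTATAA from 31 bases before the start. Of 32851 promoter windows of the same length, 7.92% held TATNCAT and 22.8% held TATAA. The matches are letters in a window and do not show that a factor binds there.

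Cluster 2 lay as a compact field on the authors' two-dimensional UMAP map of the cells. Of the 30 nearest neighbours of its cells within the same library, 96.3% for HT and 97.1% for WT were also of cluster 2. Cluster 1 gave most of the others, at 3.25% and 2.21%. Cluster 5, with only 24 HT and 28 WT cells, gave 0.362% and 0.365%. Within the cluster, HT cells had 62.5% HT neighbours where HT made up 50.1% of the cells, and WT cells had 61.2% WT neighbours where WT made up 49.9%. The genotypes thus leaned to different sides of 1 field on the map. Of 37359 distinct barcode sequences, 115 occurred in more than 1 library. These touched 22 of the 4173 cells, and no barcode was shared between HT and WT within the cluster.

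**Figure D1:**
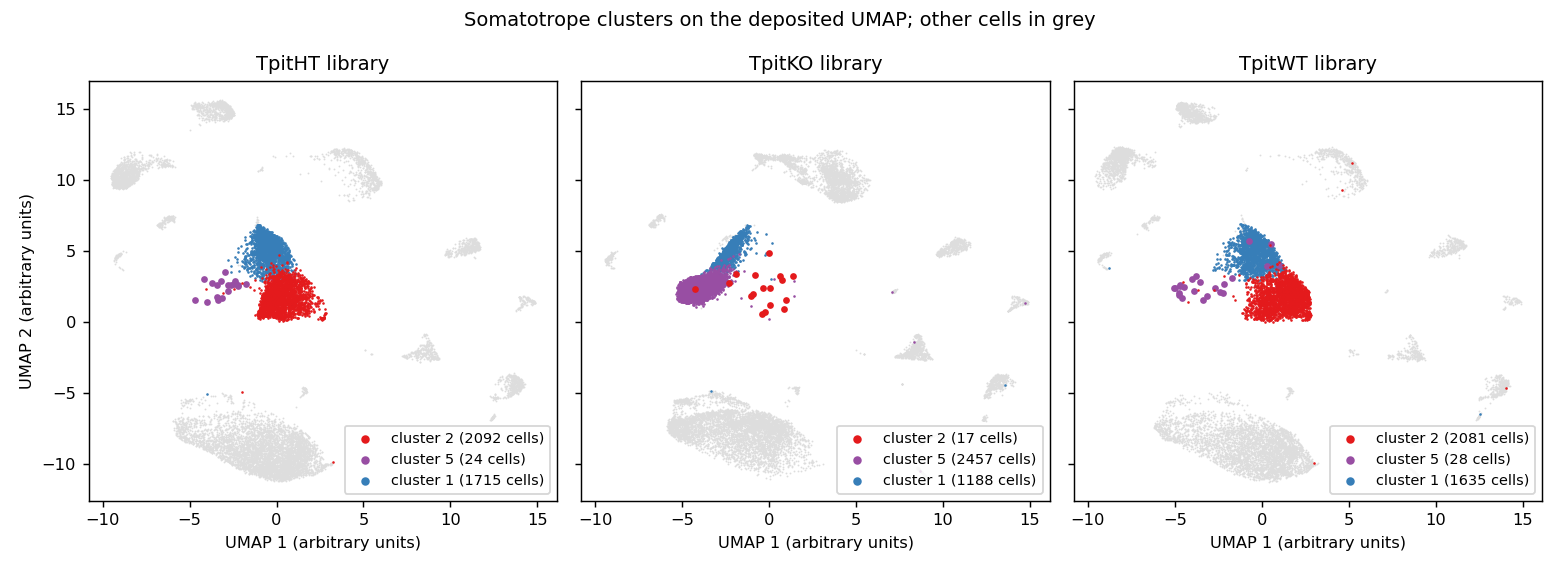
Positions of the cells on the authors' UMAP map (both axes in arbitrary units) in the HT, KO and WT libraries, with cluster 2 in red, cluster 1 in blue, cluster 5 in purple and all other cells in grey. Groups of under 100 cells are drawn with larger points. Cluster 2 held 2092 HT, 17 KO and 2081 WT cells, while cluster 5 held 24 HT, 2457 KO and 28 WT cells.

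The cluster was the second largest of both libraries. It took 16.3% of the HT cells (95% exact binomial interval 15.7 to 16.9) and 18.5% of the WT cells (17.8 to 19.3), a ratio of 0.879 (0.827 to 0.934). The ratio depended on the denominator. Within the 3 growth hormone clusters 1, 2 and 5, cluster 2 made up 54.6% of 3831 HT cells and 55.6% of 3744 WT cells, a ratio of 0.982 with an interval of 0.924 to 1.04 that includes 1. In KO the cluster had 0.127% of the cells. All intervals cover counting error only, not variation between animals, dissections or libraries. Counts come bunched in cells, so intervals of expression values are too narrow.

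Cluster 2 had the highest mean count per cell of the 15 HT clusters and the 16 WT clusters with 50 cells or more. Cells averaged 17341 counts in HT and 14213 in WT, from totals of 36276905 and 29577641 counts. Gh alone made up 51.8% of these counts in HT and 52.3% in WT. Because 1 gene took this much, levels of other genes are given as counts per 1000000 (CPM) of all counts outside 7 pituitary hormone genes (Gh, Prl, Pomc, Cga, Lhb, Fshb and Tshb), and levels of hormone genes as CPM of all counts. A log2 ratio was computed after adding 10 CPM to both sides and is past 2-fold where its size is at least 1. Genes entered a comparison with at least 50 counts in the groups together and 20 CPM in 1 of them.

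The marker genes placed the cluster among growth hormone cells, but on the non-hormone total not all of them were highest in it. Gh, on chromosome 11 at 106300271 to 106301865 of the authors' gene table (build GRCm38), was counted in all 2092 HT cells and all 2081 WT cells. It averaged 8977 counts per cell in HT and 7431 in WT, against 172 in HT and 341 in WT for cells of cluster 9, which had high levels of endothelial genes. Gh was also counted in every cell of cluster 9, at 3.96% of counts in HT and 9.45% in WT, so a count of Gh in a cell does not by itself mark a somatotrope.

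Ghrhr, the receptor for GHRH, stood at 143 CPM in HT and 131 CPM in WT cells of cluster 2. Cluster 1, the other growth hormone cluster of these libraries, was higher, with 197 CPM in HT and 210 CPM in WT. Cells outside clusters 1, 2 and 5 had 2.35 CPM in HT and 3.96 CPM in WT. Ghrhr therefore separated both growth hormone clusters from other cells and, on the non-hormone total, was not highest in cluster 2. The order of the 2 clusters depends on the total. By all counts, cluster 2 was above cluster 1 in HT, with 2474 of 36276905 counts against 1125 of 18421107. In WT it stayed below, with 1829 of 29577641 against 912 of 13842519. Its count was found in 54.3% of HT cells and 45.7% of WT cells, and in 1.42% of HT and 1.93% of WT cells of cluster 9. Cluster 9 was shallower, with means of 4343 counts per cell in HT and 3610 in WT.

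Pappa2, a secreted protease that cleaves IGF-binding proteins, was at 157 CPM in HT and 231 CPM in WT. The ratio of HT to WT was 0.677 (0.643 to 0.713). Cluster 1 had 180 CPM in HT and 228 CPM in WT. On this total HT cells of cluster 1 were above those of cluster 2, while WT cells of both clusters lay within counting error (ratio 1.01, 0.944 to 1.09). By all counts, cluster 2 was above cluster 1 in both genotypes. In HT it had 2717 of 36276905 counts against 1025 of 18421107, and in WT 3223 of 29577641 against 987 of 13842519. Outside clusters 1, 2 and 5 the gene had 1.41 CPM in HT and 4.49 CPM in WT.

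Dapl1 and Gnmt were the markers with their highest level in cluster 2 in both genotypes on the non-hormone total. Dapl1, a small protein linked to the arrest of cell growth in epithelia, had 182 CPM in HT and 189 CPM in WT, whose ratio of 0.961 had an interval of 0.913 to 1.01. In cluster 1 it had 132 CPM in HT and 118 CPM in WT, and outside clusters 1, 2 and 5 it had 36.6 CPM in HT and 45.5 CPM in WT. Gnmt, which methylates glycine and uses up the methyl donor S-adenosylmethionine, had 65.2 CPM in HT and 86.5 CPM in WT (ratio 0.754, 0.694 to 0.818). In cluster 1 it had 38.9 CPM in HT and 58.2 CPM in WT, and outside clusters 1, 2 and 5 it had 12.3 CPM in HT and 12.2 CPM in WT. Dapl1 was counted in 53.2% of HT and 53.6% of WT cells of cluster 2, and Gnmt in 28.3% of HT and 32.2% of WT cells.

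**Figure D2:**
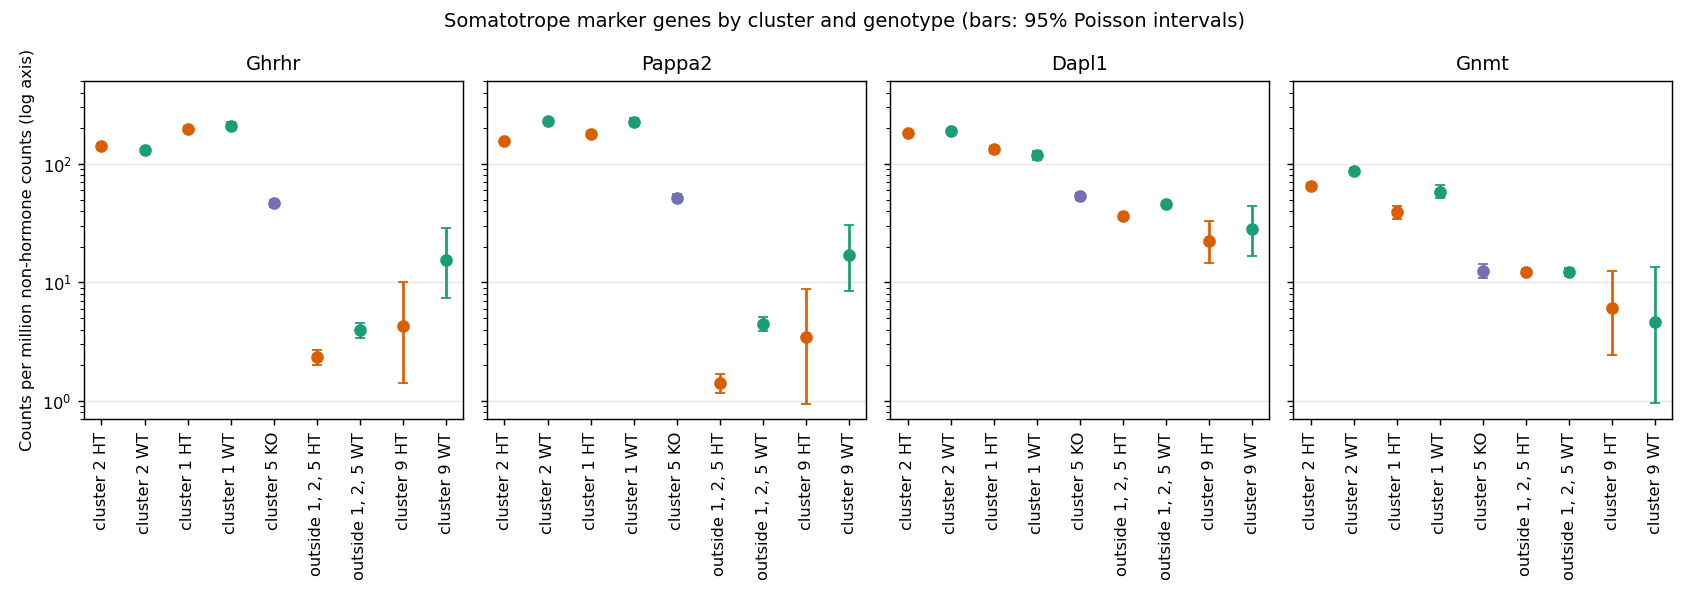
Level of 4 marker genes in CPM (log axis) by cluster and genotype, orange for HT, green for WT and purple for KO. Points are single libraries and bars are 95% Poisson intervals for counting error. Cluster 1 lies above cluster 2 for Ghrhr and below it for Dapl1 and Gnmt, and cells outside clusters 1, 2 and 5 lie lowest for Ghrhr and Pappa2.

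Defining markers of most other cell types were low. The summed level of 4 endothelial genes (Pecam1, Plvap, Cdh5, Kdr) was 4.15 CPM in HT and 3.51 CPM in WT, against 5890 CPM in HT and 5255 CPM in WT for cluster 9. The 4 macrophage genes summed to 4.78 CPM in HT and 2.58 CPM in WT, and the 4 stem cell genes to 4.09 CPM in each. The 4 hemoglobin genes summed to 2.94 CPM in HT and 1.51 CPM in WT. Fibroblast genes summed to 129 CPM in HT and 163 CPM in WT with 1 of the 4 genes at 0 in each library, against 227 CPM in HT and 199 CPM in WT for the other cells, and Col1a2 gave nearly all of the sum in cluster 2. The thyrotrope genes Dio2 and Trhr summed to 17.3 CPM in HT and 13.3 CPM in WT, against 9.40 CPM in HT and 14.7 CPM in WT for the other cells, and Dio2 gave nearly all of that, with Trhr at 0.288 CPM and 0.287 CPM. Tbx19 itself had 11 counts in HT and 26 counts in WT.

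RNA of other hormones was present at low level. Prl, the lactotrope hormone, stood at 2675 CPM of all counts in HT and 4285 CPM in WT. In cells outside clusters 1, 2 and 5 it had 123692 CPM in HT and 135430 CPM in WT. Pomc had 443 CPM in HT and 600 CPM in WT, against 13.2 CPM in cluster 5 of KO, the library in which the Pomc-rich clusters 6 and 7 held no cell. Whether these counts arose in the somatotropes or in free RNA was not tested.

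Next, cluster 2 was set against all other cells of its own library. The clusters were made from these genes, so the result is a description. Of 7522 genes compared in both genotypes, 165 (2.19%) were past 2-fold higher in both and 306 (4.07%) past 2-fold lower in both. The counts depend on the total, with 23 higher and 512 lower by all counts, of 5538 genes, and 77 higher and 355 lower on the authors' scaled counts. The highest were led by Pappa2 with log2 ratios of 2.83 in HT and 2.90 in WT. Pappa2 overlaps the RIKEN gene 1600012P17Rik on the same strand, so their counts may not be separate. Tent5c, a poly(A) polymerase of the non-canonical kind, followed with 2.23 in HT and 2.22 in WT, and Ghrhr with 2.57 and 2.21.

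Car10, Homer2 and Rxrg were also among the leading genes. Car10, a carbonic anhydrase-related protein without enzyme activity, had 91.9 CPM in HT and 83.6 CPM in WT, against 8.29 CPM and 10.2 CPM in the other cells of the same libraries, and cluster 1 had a like level, 85.0 CPM in HT and 85.4 CPM in WT. Homer2, a scaffold that links receptors to calcium release, had 158 CPM in HT and 143 CPM in WT, against 24.2 CPM and 27.9 CPM in the other cells and 129 CPM and 113 CPM in cluster 1. Rxrg, a retinoid X receptor, had 99.3 CPM in HT and 76.6 CPM in WT, against 14 CPM and 14.9 CPM in the other cells and 61.2 CPM and 46.4 CPM in cluster 1. The other cells include cluster 1, whose levels of these 3 genes were much nearer to those of cluster 2.

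The others in the leading 15 were Rad18, Tcerg1l, Ccn1, Snhg18, Ppp1r14a, Snord123, Atg9b, Slc39a14 and Kcnmb4. Snord123, a small nucleolar RNA, lies inside Snhg18 on the same strand, so their counts may not be separate. Kcnmb4, an accessory subunit of calcium-activated potassium channels, had 136 CPM in HT and 167 CPM in WT, against 33.8 CPM and 30.9 CPM in the other cells and 112 CPM and 108 CPM in cluster 1. Slc39a14, a transporter of zinc and iron, had 91.8 CPM in HT and 116 CPM in WT, against 18.7 CPM and 22.6 CPM in the other cells. Rad18, a ubiquitin ligase of DNA damage tolerance, had 89.8 CPM in HT and 121 CPM in WT, against 12.8 CPM and 18.2 CPM in the other cells. On this total cluster 1 was above cluster 2 for both. It had 132 CPM in HT and 160 CPM in WT for Slc39a14, and 98.5 CPM and 141 CPM for Rad18. In HT the interval of the Rad18 ratio (0.827 to 1.01) included 1. By all counts, cluster 2 was above cluster 1 for both genes in both genotypes.

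Levels in the cluster differed widely among the lineage factor, receptor and membrane protein genes named next. Pou1f1 stood at 508 CPM in HT and 651 CPM in WT, a ratio of 0.779 (0.757 to 0.802). Nr3c1, the glucocorticoid receptor, had 139 CPM in HT and 142 CPM in WT, against 45.5 CPM in HT and 65.7 CPM in WT outside clusters 1, 2 and 5. Dlk1 is a membrane protein of the Notch ligand family. It had 4121 CPM in HT and 4070 CPM in WT, against 906 CPM and 959 CPM outside clusters 1, 2 and 5. On the non-hormone total cluster 1 was higher for Dlk1, with 26908 of 5706249 counts in HT and 18699 of 4333304 in WT. By all counts, cluster 2 was above cluster 1. Of the somatostatin receptors, Sstr2 had 4.44 CPM in HT and 11.8 CPM in WT, Sstr3 had 18.8 CPM and 18.9 CPM, and Sstr5 had 10.8 CPM and 9.39 CPM. The ghrelin receptor Ghsr had 3.34 CPM in HT and 4.16 CPM in WT.

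The main neighbour on the map within HT and WT was cluster 1, with 1715 HT and 1635 WT cells. Its Gh took 68.4% of counts in HT and 68.0% in WT. Cluster 1 was shallower, at 10741 counts per cell in HT and 8466 in WT. Of 7234 genes, 5 (0.0691%) were past 2-fold higher in cluster 2 in both genotypes and 16 (0.221%) past 2-fold lower. These counts were set by the total used. With all counts as the total they were 347 higher and 1 lower of 4022 genes, on the authors' scaled counts 0 higher and 76 lower, and after centring on the median of all genes 0 higher and 26 lower. The 5 were Snord4a, Snora65, Camk2n1 and the predicted genes Gm26202 and Gm3362, which were left out of the ranking and are named because the count is small. Camk2n1, an inhibitor of the calcium-dependent kinase CaMKII, had 248 CPM in HT and 245 CPM in WT cells of cluster 2, against 118 CPM and 109 CPM in cluster 1. Snora65 and Snord4a, small nucleolar RNAs, lie within the ribosomal protein genes Rpl12 and Rpl23a, so reads may be shared with them.

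Of the 16 lower genes, 14 were mitochondrial or predicted genes. The others were 1700013F07Rik, an uncharacterised RIKEN gene left out of the ranking, and Malat1, a long non-coding RNA that stays in the nucleus. The RIKEN gene had 77.9 CPM in HT and 83.5 CPM in WT, against 169 CPM and 204 CPM in cluster 1. Malat1 had 20946 CPM in HT and 25092 CPM in WT, against 45837 CPM and 53638 CPM in cluster 1, with log2 ratios of -1.13 in HT and -1.10 in WT. The mitochondrial share of non-hormone counts was 2.31% in HT and 2.44% in WT, against 5.40% and 5.59% in cluster 1. Hemoglobin genes had 1535 CPM in HT and 11.5 CPM in WT cells of cluster 1.

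Gene lists showed the same division on a smaller scale. The median over all genes was 0.13 in both genotypes, which is the level to read the lists against. Of the cytosolic ribosomal protein genes, 85 of 85 had log2 ratios above 0, with a median of 0.71 in HT and 0.87 in WT. Their share of non-hormone counts was 15.6% in HT and 13.6% in WT, against 9.62% and 7.61% in cluster 1. Mitochondrially encoded genes, 13 of 13, lay below 0, with medians of -0.95 in HT and -0.99 in WT.

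Genes of the secretory pathway lay on the side of cluster 1. Of the 20 genes of the translocon and signal peptide processing, which bring hormone precursors into the endoplasmic reticulum, 18 lay below 0, with medians of -0.58 in HT and -0.57 in WT. Of 19 genes of the unfolded protein response and protein folding, 17 in HT and 18 in WT lay below 0, with medians of -0.46 and -0.50. Hspa5, the main chaperone of that compartment, had 869 CPM in HT and 1009 CPM in WT, against 1567 CPM and 1911 CPM in cluster 1. Of 17 secretory granule genes, 16 in HT and 15 in WT lay below 0, with medians of -0.53 and -0.45. Chga, a granule protein, had 198 CPM in HT and 222 CPM in WT, against 366 CPM and 440 CPM. To compare totals, the HT or WT log2 ratio nearer to 0 was taken for each gene, and 0 where their signs differed, which draws medians towards 0. With all counts as the total, the median of all genes on this measure moved to 0.57, from 0.07 with non-hormone counts, and the medians of the unfolded protein response and secretory granule lists moved to 0.03 and 0.02. Both lists thus passed 0 but remained below the median of all genes. Depth, the hormone share, the mitochondrial share and Malat1 all moved with these lists, and their part in the result was not tested.

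Cell cycle genes lay above 0 in 8 of 9 in HT and 9 of 9 in WT, with medians of 0.36 and 0.42, and Ccnd1, a cyclin of the G1 phase, had 186 CPM in HT and 215 CPM in WT, against 123 CPM and 125 CPM in cluster 1. Of 20 genes of lipid and cholesterol synthesis, 17 lay below 0 in each genotype, with medians of -0.20 in HT and -0.30 in WT. Class I MHC and interferon genes had medians of -0.44 in HT and -0.39 in WT. With all counts as the total, the measure given above was 0.22 for the lipid list and 0.11 for the class I MHC and interferon list, again below the 0.57 of all genes. Antioxidant genes had medians of 0.29 in HT and 0.26 in WT, and early response and heat shock genes of 0.19 and 0.13. On the authors' scaled counts the measure was -0.00028 for the antioxidant list and -0.12 for the early response and heat shock list, against -0.08 for all genes. Medians of the cAMP signalling list were 0.11 in HT and 0.07 in WT, and those of the exocytosis list were 0.11 and 0.02.

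**Figure D3:**
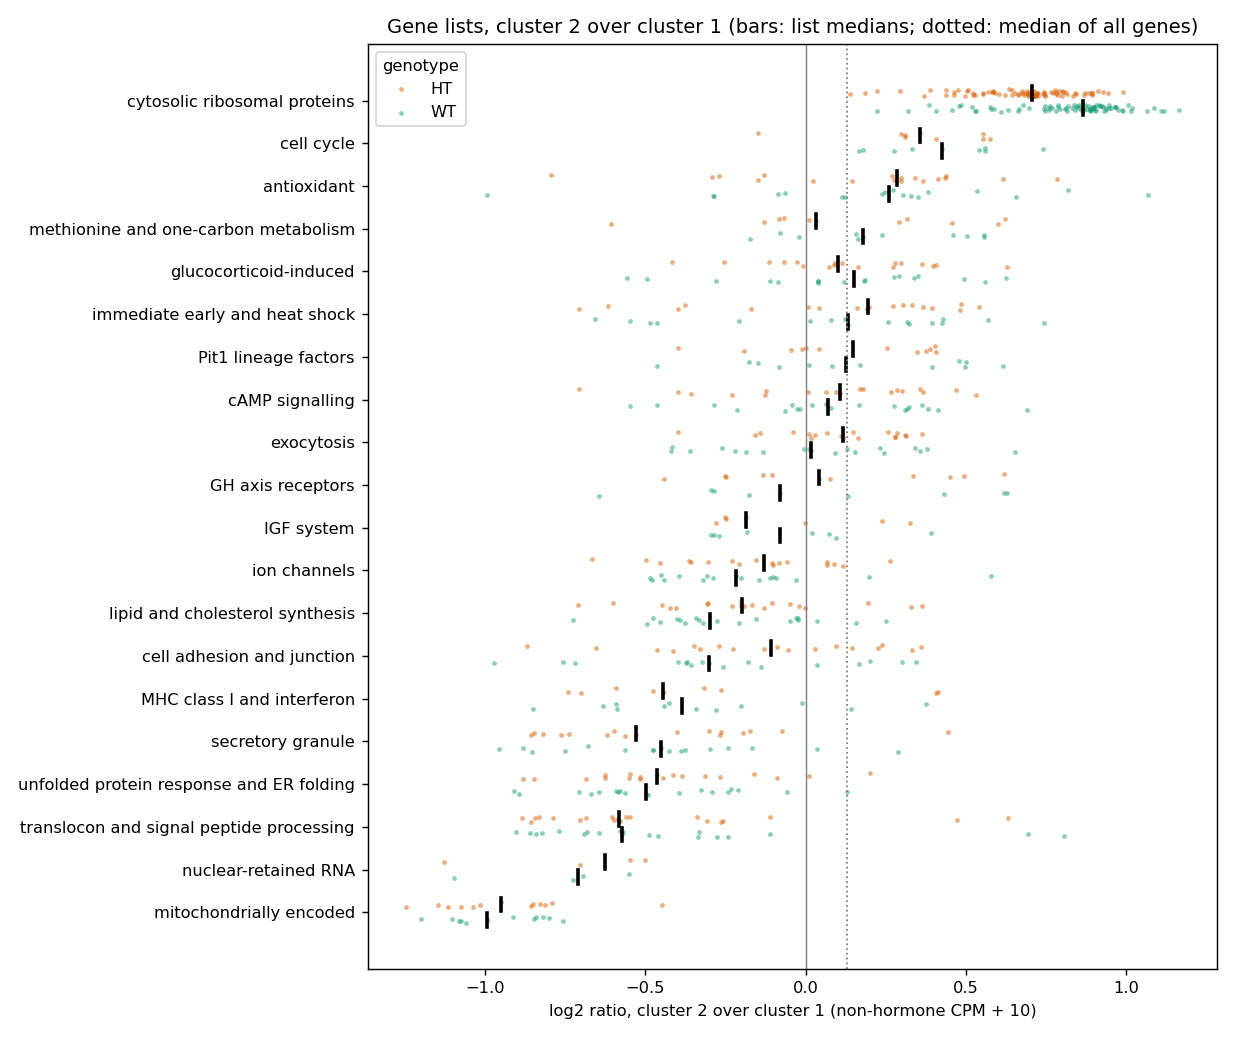
Log2 ratio of cluster 2 over cluster 1 (x axis, after adding 10 CPM) for the genes of each list, orange for HT and green for WT, with list medians as black bars. The dotted line is the median of all genes in WT, 0.13. Ribosomal protein genes lie highest, with medians of 0.71 in HT and 0.87 in WT, and mitochondrially encoded genes lowest, with medians of -0.95 and -0.99.

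Within the cluster, some genes were spread more unevenly over cells than their mean would give. The measure was the mean count per positive cell over the value that chance placement of single counts would give, and its median over 1337 genes at 100 CPM or more was 1.20 in HT and 1.18 in WT. Ccn1, a matrix protein induced by serum and stretch, was highest with 1.75 in HT and 1.80 in WT. It was counted in 48.5% of HT and 40.4% of WT cells, where the mean would give 85.0% and 72.6%. Gadd45g, Errfi1, C2cd4b, Rasd1, Dnajb1, Nr4a2 and Tmsb4x followed, with values between 1.49 and 1.75 in HT and between 1.55 and 1.74 in WT. Gadd45g and Nr4a2 are early response genes, Errfi1 and Rasd1 respond to glucocorticoids, and Tmsb4x, which binds actin monomers, is high in cells of other types, at 11434 CPM in HT and 9553 CPM in WT in cluster 9. Of the markers, Ghrhr had 1.28 in each genotype, Pappa2 1.38 in HT and 1.30 in WT, and Dapl1 1.47 and 1.34. Ghrhr was thus the nearest of these 3 to the median gene. The measure nears 1 for genes counted in almost all cells, such as Pou1f1 with 1.08 in HT and 1.06 in WT. The median gene is therefore not matched to these markers for level.

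The comparison of HT with WT within the cluster asks what 1 genotype label changes in cells that do not express Tbx19 beyond a few counts. Of 7443 genes, 3 (0.0403%) were past 2-fold higher in HT and 10 (0.134%) past 2-fold lower, which is 0.175% in either direction. With all counts as the total they were 2 higher and 3 lower of 4453 genes, and with 1 CPM added in place of 10 they were 7 and 24. The same comparison gave 0.219% of 7311 genes in cluster 1 and 0.154% of 7132 genes outside clusters 1, 2 and 5. The number in cluster 2 was thus near that in the rest of the same libraries. At 1.5-fold, 20 genes (0.269%) were higher in HT and 60 (0.806%) lower. HT cells were deeper in this cluster, by the means given above.

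Heat shock genes led the higher side. Hspa1a and Hspa1b, near-identical neighbouring genes for the inducible chaperone HSP70 whose reads can be split between them, had 95.6 CPM and 46.1 CPM in HT, against 31.0 CPM and 12 CPM in WT. Outside clusters 1, 2 and 5 they were also higher in HT, with 280 CPM and 182 CPM against 148 CPM and 104 CPM. Ddit4l, an inhibitor of mTOR signalling, had 55.3 CPM in HT and 20.6 CPM in WT, a ratio of 2.68 (2.35 to 3.07). In cluster 1 it had 40.3 CPM in HT and 13.2 CPM in WT, and outside clusters 1, 2 and 5 it had 17.9 CPM in HT and 17.2 CPM in WT. It was counted in 23.3% of HT and 8.79% of WT cells of cluster 2.

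The next genes on the higher side stayed short of 2-fold with 10 CPM added. Sfi1, a centrosome protein, had 70.3 CPM in HT and 30.8 CPM in WT, and Rbm3, an RNA-binding protein induced by cold, had 221 CPM in HT and 125 CPM in WT. Both were higher in HT outside clusters 1, 2 and 5 as well, with 59.4 CPM against 27 CPM for Sfi1 and 156 CPM against 68.0 CPM for Rbm3. Bdnf, a neurotrophin, had 45.2 CPM in HT and 21.5 CPM in WT. Psmb9, a subunit of the immunoproteasome that overlaps Tap1 on the other strand, had 55.1 CPM in HT and 29.0 CPM in WT, and outside clusters 1, 2 and 5 it had 32.4 CPM in HT and 31.5 CPM in WT. Mtus2, Fam92b and Pcp4l1 had log2 ratios of 0.81, 0.74 and 0.70.

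Cidea and Srxn1 were the lower genes with the most counts. Cidea, a protein of lipid droplets, had 93.5 CPM in HT and 272 CPM in WT, a ratio of 0.343 (0.324 to 0.364), and it was counted in 35.7% of HT and 57.8% of WT cells. It lies on chromosome 18 at 67343604 to 67367785 and overlaps a predicted gene on the other strand. Srxn1, sulfiredoxin, which restores oxidised peroxiredoxins and lies on chromosome 2 at 152105516 to 152111376, had 137 CPM in HT and 368 CPM in WT, a ratio of 0.372 (0.354 to 0.391). It was counted in 50.4% of HT and 68.7% of WT cells. In cluster 1 both were also lower in HT, with ratios of 0.396 (0.362 to 0.432) for Cidea and 0.442 (0.392 to 0.499) for Srxn1.

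The direction was the opposite in the cells that make pro-opiomelanocortin. Cluster 6, corticotrope-like by Pomc, Tbx19, Crhr1 and Avpr1b, had 852 CPM of Srxn1 in HT and 253 CPM in WT, a ratio of 3.37 (3.19 to 3.55). Cluster 7, melanotrope-like by Pomc, Pax7, Oacyl and Pcsk2, had 166 CPM in HT and 49.5 CPM in WT, a ratio of 3.35 (2.91 to 3.87). For Cidea the ratios were 2.43 (2.27 to 2.61) in cluster 6 and 2.09 (1.89 to 2.31) in cluster 7. Both genes were thus lower in HT in both growth hormone clusters and higher in HT in both pro-opiomelanocortin clusters, and the difference between clusters was not tested.

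The other 8 ranked lower genes had lower levels, and all 8 were also lower in HT in cluster 1. Vgf, a granule protein and source of secreted peptides, had 7.78 CPM in HT and 35.8 CPM in WT, and 14.5 CPM and 46.4 CPM in cluster 1. Mmp7, a matrix protease, had 5.53 CPM in HT and 24.9 CPM in WT, and Liph, a phospholipase, had 6.80 CPM in HT and 26.1 CPM in WT. Outside clusters 1, 2 and 5 both genes had under 1 CPM in each genotype. Nefm, a neurofilament, had 8.64 CPM in HT and 29.7 CPM in WT, and Rtn4r, the Nogo receptor, had 6.11 CPM and 23.8 CPM. Myo1d, an unconventional myosin, had 12 CPM in HT and 34.8 CPM in WT. Adssl1, an enzyme of purine nucleotide synthesis, had 30.8 CPM in HT and 67.7 CPM in WT with a log2 ratio of -0.93, short of 2-fold. Tmem181c-ps, a pseudogene, had 0.979 CPM in HT and 23.7 CPM in WT and was as low in HT in the other cells, with 1.19 CPM against 23.3 CPM outside clusters 1, 2 and 5. The tenth gene past 2-fold was the predicted gene Gm47283, named only for completing the count.

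**Figure D4:**
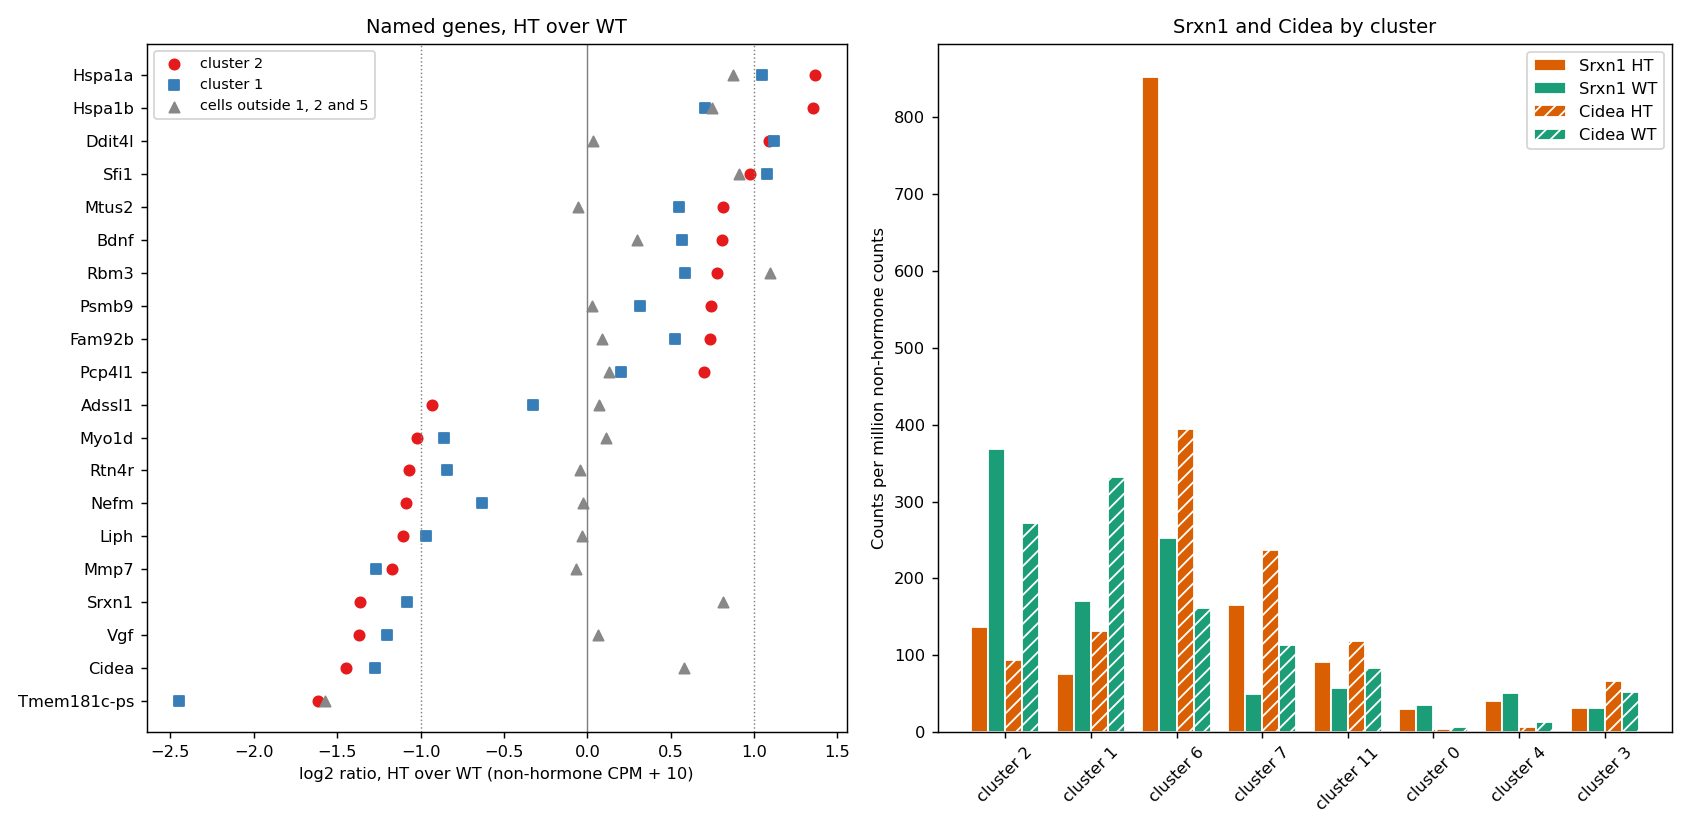
Left, log2 ratio of HT over WT (x axis, after adding 10 CPM) for the genes named for this comparison, in cluster 2, cluster 1 and cells outside clusters 1, 2 and 5, with dotted lines at 2-fold. Right, level of Srxn1 (plain bars) and Cidea (hatched bars) in CPM by cluster, HT in orange left of WT in green, without error bars. Srxn1 has 852 CPM in HT and 253 CPM in WT in cluster 6, against 137 CPM in HT and 368 CPM in WT in cluster 2.

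Of the gene lists, no member other than Hspa1a, Hspa1b, Srxn1 and Vgf was past 2-fold between HT and WT. The median over all genes was -0.03. Ribosomal protein genes lay above 0 in 85 of 85, with a median of 0.19, as in cluster 1 with 84 of 84 and 0.34 and outside clusters 1, 2 and 5 with 81 of 85 and 0.12. Genes of the unfolded protein response lay below 0 in 18 of 19, with a median of -0.23, as in cluster 1 with 18 of 19 and -0.27 and outside with 14 of 19 and -0.09. Creld2, a protein of the endoplasmic reticulum, was lowest in that list with 58.2 CPM in HT and 84.1 CPM in WT. Glucocorticoid-induced genes lay above 0 in 14 of 18, with a median of 0.19. Tsc22d3, a classic target of the glucocorticoid receptor, was highest in that list with 89.7 CPM in HT and 56.7 CPM in WT. It was also higher in HT in cluster 1, with 478 of 5706249 non-hormone counts against 238 of 4333304 in WT.

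The 10 GH axis receptors that passed the filter on level had a median of 0.04 with 5 above and 5 below 0, from -0.47 for the thyroid hormone receptor Thrb to 0.34 for Rxrg, and the 19 cAMP signalling genes had a median of 0.00 with 11 above 0. Crem, a cAMP-responsive transcription factor, was lowest with 60.7 CPM in HT and 99.1 CPM in WT. Of 7 IGF system genes, 6 lay below 0, with Pappa2 lowest. A pair of genes below that filter differed more. Igf1 had 252 counts in HT and 57 in WT, or 14.5 CPM and 4.09 CPM, a ratio of 3.55 (2.66 to 4.82). Sstr2 had 77 counts in HT and 164 in WT, or 4.44 CPM and 11.8 CPM, a ratio of 0.377 (0.284 to 0.498). Both differences had the same direction in cluster 1, of 5706249 non-hormone counts in HT and 4333304 in WT. There Igf1 had 69 counts in HT and 18 in WT, and Sstr2 had 29 and 63.

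In KO, 2457 of the 3662 cells of the 3 growth hormone clusters were in cluster 5. They had a mean of 12859 counts, of which Gh took 46.1%. Mitochondrial genes took 2.33% of their non-hormone counts and ribosomal protein genes 15.4%. By these 3 shares, cluster 5 of KO was nearer to cluster 2 than cluster 1 was. Log2 ratios of cluster 2 over cluster 5 of KO ran from -0.34 to 0.39 for HT and -0.40 to 0.51 for WT (5% to 95% of genes). Over cluster 1 they ran from -0.52 to 0.59 and from -0.56 to 0.70. Genotype, library and cluster differ together here and cannot be told apart, so the values are a description. Of 7373 genes, 56 (0.760%) were past 2-fold higher in cluster 2 in both HT and WT, and 20 (0.271%) past 2-fold lower. With all counts as the total they were 22 higher and 9 lower of 4646 genes, and with 1 CPM added 88 and 40. Both comparisons share the KO cells, so the counts over HT and WT are not independent. The 20 lower genes include the hemoglobin genes Hbb-bs, Hba-a1 and Hba-a2, which were left out of the ranking. Hemoglobin genes summed to 312 CPM in cluster 5 of KO, against 2.94 CPM in HT and 1.51 CPM in WT cells of cluster 2.

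The higher genes included all 4 non-hormone markers. Gnmt had 65.2 CPM in HT and 86.5 CPM in WT cells of cluster 2 and 12.4 CPM in KO cells of cluster 5, and Dapl1 had 182 CPM and 189 CPM, against 53.4 CPM in KO. Pappa2 had 157 CPM and 231 CPM, against 51.9 CPM in KO, and Ghrhr had 143 CPM and 131 CPM, against 46.5 CPM in KO. Pou1f1 differed less, with 508 CPM and 651 CPM, against 588 CPM in KO. The same 4 markers were also lower in KO cells of cluster 1, where Ghrhr had 81.0 CPM and Pappa2 80.7 CPM.

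Alcam, Penk and Ceacam10 were among the leading genes on the higher side. Alcam, a cell adhesion molecule, had 181 CPM in HT and 198 CPM in WT, against 16.4 CPM in KO. Penk, the precursor of enkephalins, had 67.9 CPM and 56.1 CPM, against 0.892 CPM in KO. Ceacam10, a carcinoembryonic antigen family member, had 46.3 CPM and 63.4 CPM, against 2 counts or 0.119 CPM in KO, with ratios of 390 (107 to 3222) for HT and 533 (147 to 4408) for WT. Ntrk3, a neurotrophin receptor, had 33.5 CPM and 56.6 CPM, against 0.357 CPM in KO. Ugt8a, an enzyme of galactolipid synthesis, had 45.4 CPM and 42.9 CPM, against 3.03 CPM in KO. B2m, the light chain of class I MHC, had 333 CPM and 384 CPM, against 87.8 CPM in KO. The class I heavy chain H2-D1 had 259 CPM and 288 CPM, against 288 CPM in KO. In cluster 1, Alcam, Penk, Ceacam10, Ntrk3, Ugt8a and B2m were also lower in KO than in HT and WT. There Ceacam10 had 0 counts in KO, against 413 in HT and 518 in WT.

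Of the 18 glucocorticoid-induced genes compared, 5 were among the 56 higher genes. Over all 7373 genes, the 56 made up 0.760%. The list had 16 of 18 members above 0. Its medians were 0.83 for HT and 0.54 for WT, against 0.00 and 0.03 over all genes. Errfi1, a brake on EGF receptor signalling, had 134 CPM in HT and 116 CPM in WT, against 24.7 CPM in KO. Fkbp5, a chaperone of the glucocorticoid receptor, had 147 CPM and 121 CPM, against 38.5 CPM in KO. Cdkn1a, an inhibitor of the cell cycle, had 65.3 CPM and 56.1 CPM, against 9.57 CPM in KO. Mt2, a metallothionein, had 209 CPM and 246 CPM, against 64.2 CPM in KO, and Crispld2 had 43.0 CPM and 34.9 CPM, against 4.93 CPM in KO. Dusp1, a phosphatase of the same list, was lower, with 318 CPM and 321 CPM, against 627 CPM in KO. In cluster 1 the list had medians of -0.80 for KO over HT and -0.49 for KO over WT.

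On the lower side, Calb1, a calcium buffer, had 30.8 CPM in HT and 20.7 CPM in WT, against 135 CPM in KO, and Sphkap, an anchor of protein kinase A, had 51.1 CPM and 49.3 CPM, against 195 CPM in KO. Upp1, a uridine phosphorylase, had 1.27 CPM and 1.58 CPM, against 28.4 CPM in KO. Ppp1r3b, a regulator of glycogen synthesis, had 6.39 CPM and 7.38 CPM, against 40.1 CPM in KO. Dach1, Lsamp and Pdzrn4 had between 4.52 CPM and 12.7 CPM in HT and WT, against 31.4 CPM to 43.5 CPM in KO. Tmsb4x had 135 CPM and 132 CPM, against 313 CPM in KO. All 8 were also higher in KO than in HT and WT cells of cluster 1.

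**Figure D5:**
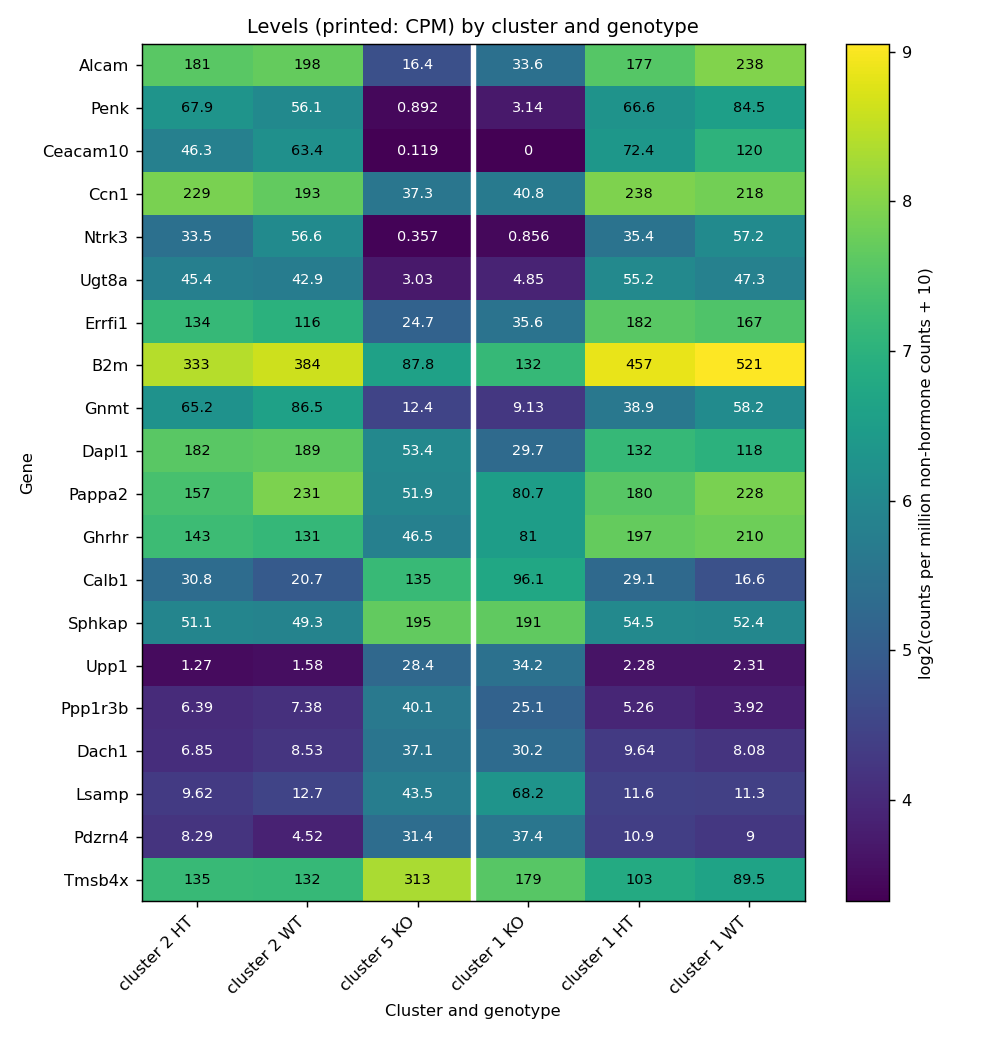
Levels of the genes named for the comparison with cluster 5 of KO, with the 4 markers between them (rows), in cluster 2 of HT and WT, cluster 5 of KO, and cluster 1 of KO, HT and WT (columns). Colour is log2 of CPM plus 10 and the printed numbers are CPM from single libraries, with hormone genes left out of the total. Alcam has 181 and 198 CPM in cluster 2 of HT and WT and 16.4 CPM in cluster 5 of KO, while Calb1 has 30.8 and 20.7 CPM against 135 CPM.

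A few cells crossed between the clusters. Among the cells of all 3 libraries, the 17 KO cells numbered in cluster 2 had 68.6% neighbours of cluster 2 on the map and 13.9% neighbours of KO. They had 190 CPM of Pappa2 from 20 counts and 56.9 CPM of Gnmt from 6 counts. Ghrhr was counted in 17.6% of them (3.80 to 43.4), Dapl1 in 23.5% (6.81 to 49.9) and Pappa2 in 52.9% (27.8 to 77.0). The shares of Ghrhr and Dapl1 were near the 19.5% and 20.9% of cluster 5 of KO. That of Pappa2 was above the 21.9% of cluster 5. In cluster 2 the shares of Ghrhr, Dapl1 and Pappa2 were 54.3%, 53.2% and 52.9% in HT. In WT they were 45.7%, 53.6% and 60.8%. In the opposite direction, the 24 HT and 28 WT cells numbered in cluster 5 had 29.1 CPM and 62.1 CPM of Pappa2, below the cluster 2 cells of the same libraries.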

How the data were processed

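The authors deposited raw counts per gene summed over each genotype and cluster, in whole numbers per the file values, with the number of cells having a count. They also deposited scaled counts (a signal equal to the counts times 1 factor per genotype and cluster), used as an alternative, and UMAP map coordinates per barcode (a score). Tools were Cell Ranger 5, Seurat 3.1 and DESeq2 and builds mm10 and GRCm38, per the submitters' processing notes, which give none a step. Whether counts are molecules or strand-specific is not given in the sources used here, so overlapping genes are uncertain. Besides the overlaps given above, Sphkap overlaps Gm37517 on the same strand. Kcnmb4 overlaps Kcnmb4os2 and Ntrk3 overlaps Gm9885 on the other strand, and further named genes overlap others. A further 305 deposited columns (means, shares and numbers of cells for the same groups) were not used. Counts per single cell were not used, so no doublet caller was run and depths are means.

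From 55403 gene rows, 110 sharing a symbol with another were added to it, leaving 55293 symbols. Groups were summed, scaled to CPM and compared as log2 ratios with Python 3.11.15, pandas 2.3.3 and scipy 1.17.1, tested on simulated data. Intervals at 95% were exact Poisson for counts, Clopper-Pearson for shares and conditional binomial for ratios. Cluster 6 and 7 names rest on marker genes. Named genes were the 10 highest and 10 lowest for HT over WT, the 8 highest and 8 lowest against cluster 5, up to 10 each way against cluster 1, and the 15 highest against other cells. Mitochondrial, ribosomal, hemoglobin, sex-linked, hormone and predicted genes were not ranked. Of each gene list, members with high levels or large ratios were named. The members, the 17 lists and the rules were chosen with earlier results of these data known. The ribosomal, mitochondrial, translocon and nuclear-retained RNA lists, the TATAA motif, the 1.5-fold threshold and the cells outside clusters 1, 2 and 5 were added after the data were seen.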

Additional observations from a re-analysis of the deposited data

Results flagged for a closer look

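Srxn1 was lower in HT than in WT in cluster 2, with a log2 ratio of -1.36, and higher in HT in cells outside clusters 1, 2 and 5, with a log2 ratio of 0.81. Cidea was lower in HT in cluster 2, with a log2 ratio of -1.45, and higher in HT in those other cells, with a log2 ratio of 0.58. Each genotype had 1 library, so the difference in direction was not tested. Clusters 6 and 7 had the largest ratios of HT to WT for both genes, over 2 in each. Cidea was also higher in HT in cluster 3, with 66.6 CPM in HT and 52.7 CPM in WT, a ratio of 1.26 (1.08 to 1.49). In cluster 11 the ratios were 1.59 (0.934 to 2.83) for Srxn1 and 1.43 (0.914 to 2.30) for Cidea, with intervals that include 1. Cluster 0 had ratios of HT to WT below 1 for both genes, 0.846 (0.777 to 0.922) for Srxn1 and 0.757 (0.612 to 0.938) for Cidea. Clusters 4, 8 and 9 were also below 1 for both genes, with intervals that exclude 1. For Srxn1 their ratios were 0.795, 0.580 and 0.573, and for Cidea 0.485, 0.442 and 0.0637. Cidea was below 1 in cluster 15 as well, at 0.0771 (0.00851 to 0.336) from 2 counts in HT and 14 in WT. A lower level in HT was thus not confined to the growth hormone clusters.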

How the results depend on the processing

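No paired analysis was possible because there was only 1 library per genotype. Alternatives were another total, 1 CPM added in place of 10, no filter on counts, the authors' scaled counts and centring on the median of all genes. With all counts as the total, the genes past 2-fold over other cells became 23 higher and 512 lower, over cluster 1 they became 347 higher and 1 lower, 3 were lower in HT than in WT, and 22 were higher and 9 lower than in cluster 5 of KO. Adding 1 CPM gave 295 higher over other cells, 12 higher and 31 lower over cluster 1, 7 higher and 24 lower in HT than in WT, and 88 higher and 40 lower against cluster 5. The authors' scaled counts gave 77 higher over other cells, and 0 higher and 76 lower over cluster 1. Centring gave 0 higher and 26 lower over cluster 1. At 1.5-fold, 20 genes were higher and 60 lower in HT than in WT. The share of cluster 2 in HT over WT was 0.982 within clusters 1, 2 and 5 and 0.981 within clusters 1 and 2. List medians over cluster 1 that turned were, with all counts as the total, class I MHC and interferon (0.11), lipid and cholesterol synthesis (0.22), secretory granule (0.015) and unfolded protein response (0.027), and on the authors' scaled counts antioxidant (-0.00028) and immediate early and heat shock (-0.12). On the same measure, the HT or WT log2 ratio nearer to 0 for each gene (0 where signs differed), the median of all genes was 0.57 with all counts and -0.08 on the scaled counts. Removing the filter on counts moved no count by over 1.5 times. With 1 library per genotype no replicate could be left out, and depth limits genes of few counts such as Tbx19 and Igf1.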

Other observations

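Nuclear-retained RNAs were lower in HT than in WT cells of cluster 2, with 4 of 4 measured genes below 0 and a median log2 ratio of -0.37. Neat1, the scaffold of nuclear paraspeckles, had 77.6 CPM in HT and 122 CPM in WT, and Malat1 had a log2 ratio of -0.26. Cluster 1 had the same 4 of 4 below 0 and a median of -0.37. The share of mitochondrial counts differed little between the genotypes, by the values given above. Exocytosis genes had a median of 0.01, with Sytl4, a Rab27 effector on granules, highest at 241 CPM in HT and 156 CPM in WT and Unc13a, a vesicle priming factor, lowest with a log2 ratio of -0.48. Nqo1, an antioxidant enzyme, had 72.9 CPM in HT and 45.7 CPM in WT, while Srxn1 of the same list had 137 CPM in HT and 368 CPM in WT.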
